A study of Homo sapiens with 8 samples.

Results

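The 10 genes described here are immediate early genes and close relatives: the transcription factors EGR1, NR4A1 and SRF, the effector ARC, the short response genes IER2 and IER3, and the messenger RNA decay regulators BTG1, ZFP36, ZFP36L1 and ZFP36L2. They were taken by name wherever the expression tables of either of 2 thyroid carcinoma cell lines listed them, and each replicate number was read on its own. They are 10 of the 12715 genes listed in either line. The CAL-62 tables held 9 of them, all but NR4A1, and the BCPAP tables held 9, all but ARC, so 8 were listed in both. The genes were chosen by their values under THZ1 and DMSO in these same libraries, replicate number by replicate number, so those values are given as a description, without a test.

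The lines were BCPAP and CAL-62, both established human lines and both anaplastic thyroid carcinoma by their labels, and RNA was sequenced after oligo(dT) selection. Each line received DMSO, the vehicle, or 100 nM THZ1, in both cases for 6 h, which gave 4 groups of 2 libraries: BCPAP with DMSO, BCPAP with THZ1, CAL-62 with DMSO and CAL-62 with THZ1. THZ1 binds CDK7 covalently and blocks it, and CDK7 is the kinase within TFIIH that marks RNA polymerase II at the start of transcription. BCPAP grew in RPMI 1640 and CAL-62 in DMEM with more serum, so the effect of the line and that of its medium cannot be told apart, and since the labels do not say whether replicates were separate cultures, every p-value covers only the spread between these libraries.

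Immediate early genes are transcribed within minutes of a signal such as serum, a growth factor or stress, without any need for new protein. The signal reaches SRF and its cofactors, which sit on CArG boxes in the promoters of EGR1, of SRF itself and of FOS family genes, and it reaches CREB family factors on cAMP response elements. The response is brief because the transcripts are short-lived: the ZFP36 family of zinc finger proteins binds AU-rich stretches in the 3′ untranslated region and recruits the CCR4-NOT deadenylase, and BTG1 binds the same deadenylase. Several members of the ZFP36 family are immediate early genes themselves, and their own transcripts carry AU-rich sites. In thyroid cells EGR1 and its relatives are known to respond to serum and to MAPK signalling.

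RefSeq promoter windows (GRCh38.p14, 250 bases before to 50 after each transcription start) were at hand for 7 of the 10 genes. No window for ARC, IER3 or ZFP36L2 was used here. Each motif was searched on both strands. A CArG box, the SRF motif, was found in 1.29% of the 35116 windows of all genes, and in those of EGR1 and SRF among the 10. The palindromic cAMP response element TGACGTCA was in 1.85% of windows and in 1 of the windows of ZFP36L1. The shorter TGACG, which that element contains, was in 24.6% of windows and in those of 5 of the genes (EGR1, SRF, BTG1, ZFP36L1 and IER2). A TATAAA box was in 11.5% of windows and in those of BTG1 and SRF, the latter after the start. GGGCGG was in 45.0% of windows and in those of 5 genes (SRF, NR4A1, BTG1, IER2 and ZFP36), and the EGR1 motif GCGGGGGCG was in 5.07% and in that of SRF. The following stretches lie upstream of the start. Those of EGR1, SRF and ZFP36L1 are shown because their motifs are usual entry points of an immediate early signal. That of BTG1 is shown for its TATAAA box. Capitals mark 2 CArG boxes in EGR1 (plus strand, chr5:138465349-138465478), 2 CArG boxes in SRF (plus strand, chr6:43171139-43171268), the cAMP response element in ZFP36L1 (minus strand, chr14:68793417-68793516) and the TATAAA box in BTG1 (minus strand, chr12:92145847-92145976).
EGR1: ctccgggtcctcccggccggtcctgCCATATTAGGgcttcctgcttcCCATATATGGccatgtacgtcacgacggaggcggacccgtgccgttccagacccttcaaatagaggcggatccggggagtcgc
SRF: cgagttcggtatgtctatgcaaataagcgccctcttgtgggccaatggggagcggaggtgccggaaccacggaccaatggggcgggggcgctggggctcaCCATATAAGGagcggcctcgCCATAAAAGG
ZFP36L1: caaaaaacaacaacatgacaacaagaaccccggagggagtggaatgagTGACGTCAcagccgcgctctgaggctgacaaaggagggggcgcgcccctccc
BTG1: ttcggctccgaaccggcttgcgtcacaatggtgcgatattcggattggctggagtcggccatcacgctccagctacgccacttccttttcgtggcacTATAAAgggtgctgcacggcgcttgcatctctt
The CArG boxes of EGR1 began 105 and 83 bases before its start, and those of SRF 30 and 10 bases before. The cAMP response element of ZFP36L1 began 52 bases before and the TATAAA box of BTG1 33 bases before. A match of letters describes the window and says nothing about which factor was bound in these cells.

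AU-rich sites were searched in the 3′ untranslated regions of GENCODE v29 (GRCh38). The AU-rich core TATTTAT, to which the ZFP36 family is known to bind, occurred in 6 of the 10 genes and in 36.3% of all 10456 listed genes that could be matched by symbol. IER3 had 4 copies, ZFP36, ZFP36L1 and ZFP36L2 had 3 each, SRF had 2 and BTG1 had 1. The shorter ATTTA was in 8 of the 10, near its share of 73.2% in all, so that count is no result about the group. EGR1 and NR4A1 had ATTTA without TATTTAT, and ARC and IER2 had neither. One 25-base stretch around a TATTTAT core, in capitals, is printed for IER3 (minus strand, chr6:30743655-30743679) and for each ZFP36 family gene, since these are regulators of decay that carry the motif of their own family: ZFP36 (plus strand, chr19:39409183-39409207), ZFP36L1 (minus strand, chr14:68788338-68788362) and ZFP36L2 (minus strand, chr2:43223450-43223474).
IER3: cctaattaaTATTTATatgtattta
ZFP36: tgggcccttTATTTATgacgacttt
ZFP36L1: atcaaaacgTATTTATtgccaaact
ZFP36L2: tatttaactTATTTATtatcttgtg

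The genes are also short and have few introns. With at most 2 introns were 8 of the 10, against 13.1% of all matched genes, whose median was 8 introns. A genomic span of at most 10000 bases was found for 8 of the 10, against 22.0% of all, with a median span of 28369 bases. IER2 and IER3 had no intron in the transcript used, EGR1, BTG1 and the ZFP36 family had 1, and ARC had 2. NR4A1, with 7 introns over 21787 bases, and SRF, with 6 over 10209 bases, were the exceptions. The gene lengths behind the deposited values were 0.70 to 1.03 times the spliced lengths for 9 of the genes. For IER3 the length was 7440 bases, 5.51 times its spliced length of 1350, so its level is not comparable per length with that of the other genes. The length itself cancels in ratios between libraries, but which sequence the extra bases cover is not known. BTG1, IER2, IER3 and NR4A1 overlap a gene on the opposite strand, and the strand setting of the counting is not given in the sources used here, so reads from the 2 strands cannot be told apart at these genes. BTG1 also overlaps LINC01619 on the same strand, which no strand setting would separate.

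The deposited values are RPKM-type numbers, reads per gene scaled by gene length and by a divisor per library. The divisor lay below the reads in listed genes in each THZ1 library and above them in each DMSO library. In CAL-62 replicate 1 it was 21580812 beside 18778397 such reads under DMSO, and 13804955 beside 16681826 under THZ1. It is therefore not a plain read total. Reads in listed genes came to 16681826 to 19988647 per library, and mitochondrial transcripts took 2.69% to 10.3% of them, the highest share being in CAL-62 THZ1 replicate 1. A table lists a gene only if its mean over the DMSO libraries of that line is at least about 1 (the lowest was 1.00 in each), so an early gene silent under DMSO could not be seen. Of the thyroid markers, CAL-62 listed PAX8, and BCPAP listed PAX8, NKX2-1 and FOXE1. TG, TSHR and SLC5A5 were in neither table. Of the epithelial markers, KRT8 and KRT18 were listed in both lines, KRT19 and EPCAM in CAL-62 alone, and CDH1 in neither. The fibroblast marker COL1A1 was listed in both, with 31.0 and 39.8 in CAL-62 DMSO and 6.08 and 6.52 in BCPAP DMSO. No marker of blood or endothelial cells was listed in either.

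The values of the 10 genes ran from 0.756 (ARC) to 382 (EGR1), both in CAL-62 under DMSO. In BCPAP under DMSO, ZFP36L1 stood highest with a mean value of 128 ± 17.4 (SD, n = 2), followed by IER2 with 46.0 ± 1.74, SRF with 23.7 ± 1.38 and BTG1 with 18.8 ± 3.78. ZFP36L2 (13.7 ± 4.79), EGR1 (7.69 ± 4.69) and NR4A1 (4.14 ± 0.332) came next, and ZFP36 was lowest with 1.75 ± 0.593. IER3 is left out of this order because of its length. In it, BTG1 and ZFP36L2, ZFP36L2 and EGR1, and EGR1 and NR4A1 are neighbours whose libraries overlapped. In CAL-62 under DMSO the order could not be read in the same way, because the 2 libraries disagreed for most of these genes.

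**Figure D1:**
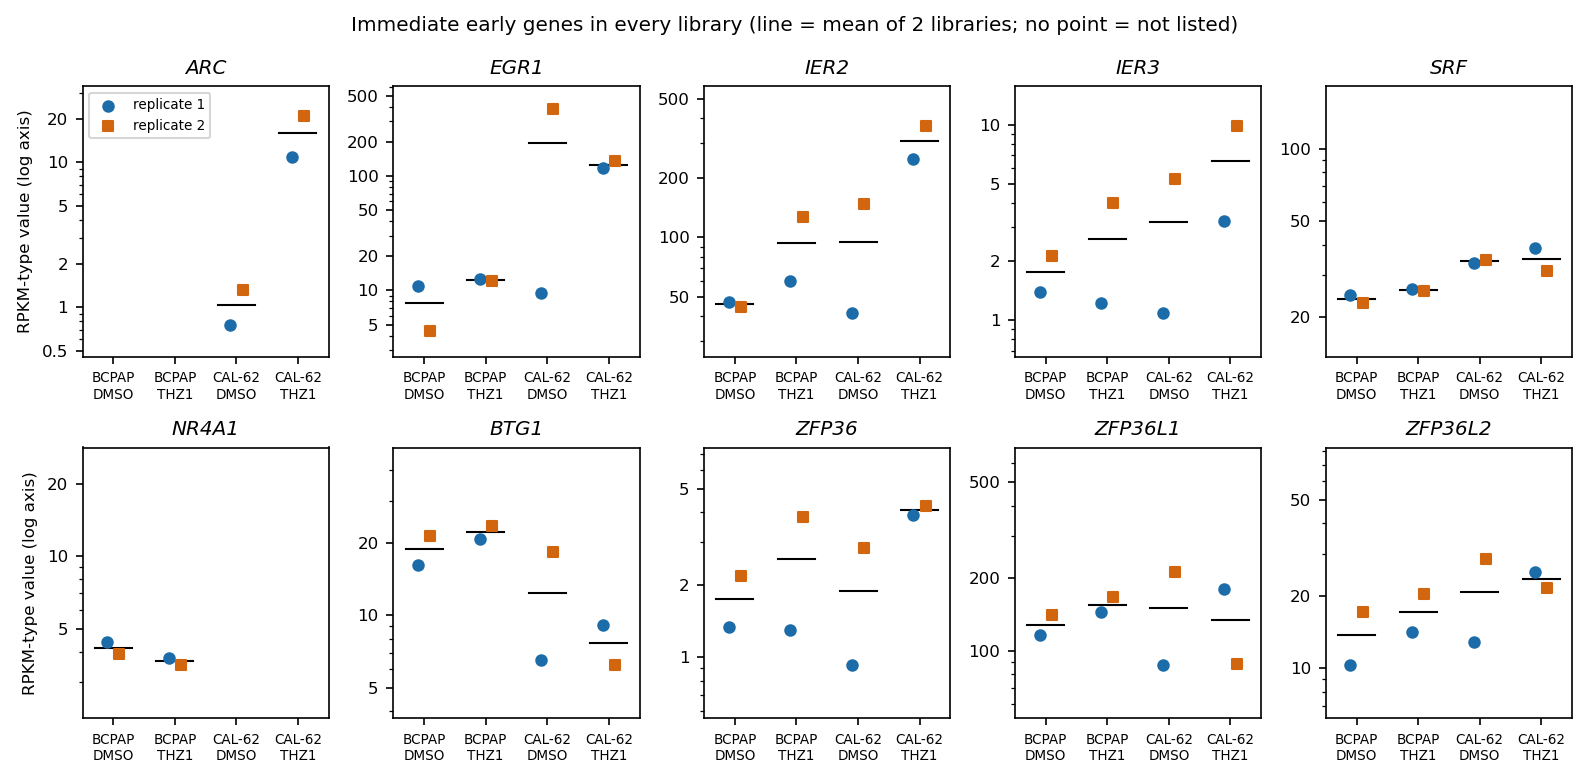
Deposited RPKM-type value (log axis) of each of the 10 genes in each library, by line and treatment; circles are replicate 1, squares replicate 2, and the bar is the mean of 2. EGR1 in CAL-62 DMSO runs from 9.47 to 382, ARC is higher in both CAL-62 THZ1 libraries (10.9 and 21.0) than in both DMSO libraries (0.756 and 1.31), and SRF stays between 22.8 and 38.6 throughout.

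The main feature of the group was the gap between the CAL-62 DMSO libraries. EGR1, a zinc finger transcription factor and the usual readout of serum response, had a value of 9.47 in replicate 1 (641 reads) and 382 in replicate 2 (28250 reads). That is a 40.4-fold gap within 1 group, and on the log2(value + 1) scale its 5.19 was the largest excess of replicate 2 over replicate 1 among the 11362 genes tested in CAL-62. The low library lies at the 48.9th percentile of listed genes and the high one at the 99.0th.

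All 9 listed genes were higher in CAL-62 DMSO replicate 2 than in replicate 1, against 47.5% of all tested genes. For 7 of the 9 the excess was at least 2-fold, against 4.51% of all genes. After EGR1 came IER3, a short stress-response gene, with 4.86-fold (1.08 and 5.27). IER2, a nuclear early response protein, followed with 3.53-fold (41.7 and 147). The decay regulators shared the gap: it was 3.06-fold for ZFP36, 2.81-fold for BTG1, 2.44-fold for ZFP36L1 and 2.21-fold for ZFP36L2. ARC showed 1.74-fold (0.756 and 1.31, from 48 and 91 reads). SRF, which acts upstream of many of these genes, had 33.5 and 34.7, a ratio of 1.03. The median gap of the 9 genes was 1.28 in log2(value + 1), beside -0.03 over all genes.

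In the other groups fewer of the genes reached 2-fold. Between the CAL-62 THZ1 libraries 1 of 9 was at least 2-fold higher in replicate 2 (IER3, 3.07-fold; 8.69% of all genes), and EGR1 differed by 1.15-fold. Between the BCPAP DMSO libraries none of 9 reached 2-fold in that direction (3.52% of all genes), and EGR1 was lower in replicate 2 (11.0 and 4.37). Between the BCPAP THZ1 libraries IER3 (3.24-fold), ZFP36 (2.94-fold) and IER2 (2.10-fold) did, which is 3 of 9 against 7.16% of all genes. The labels record nothing that separates the 2 CAL-62 DMSO libraries other than their number, and what made them differ was not tested.

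**Figure D2:**
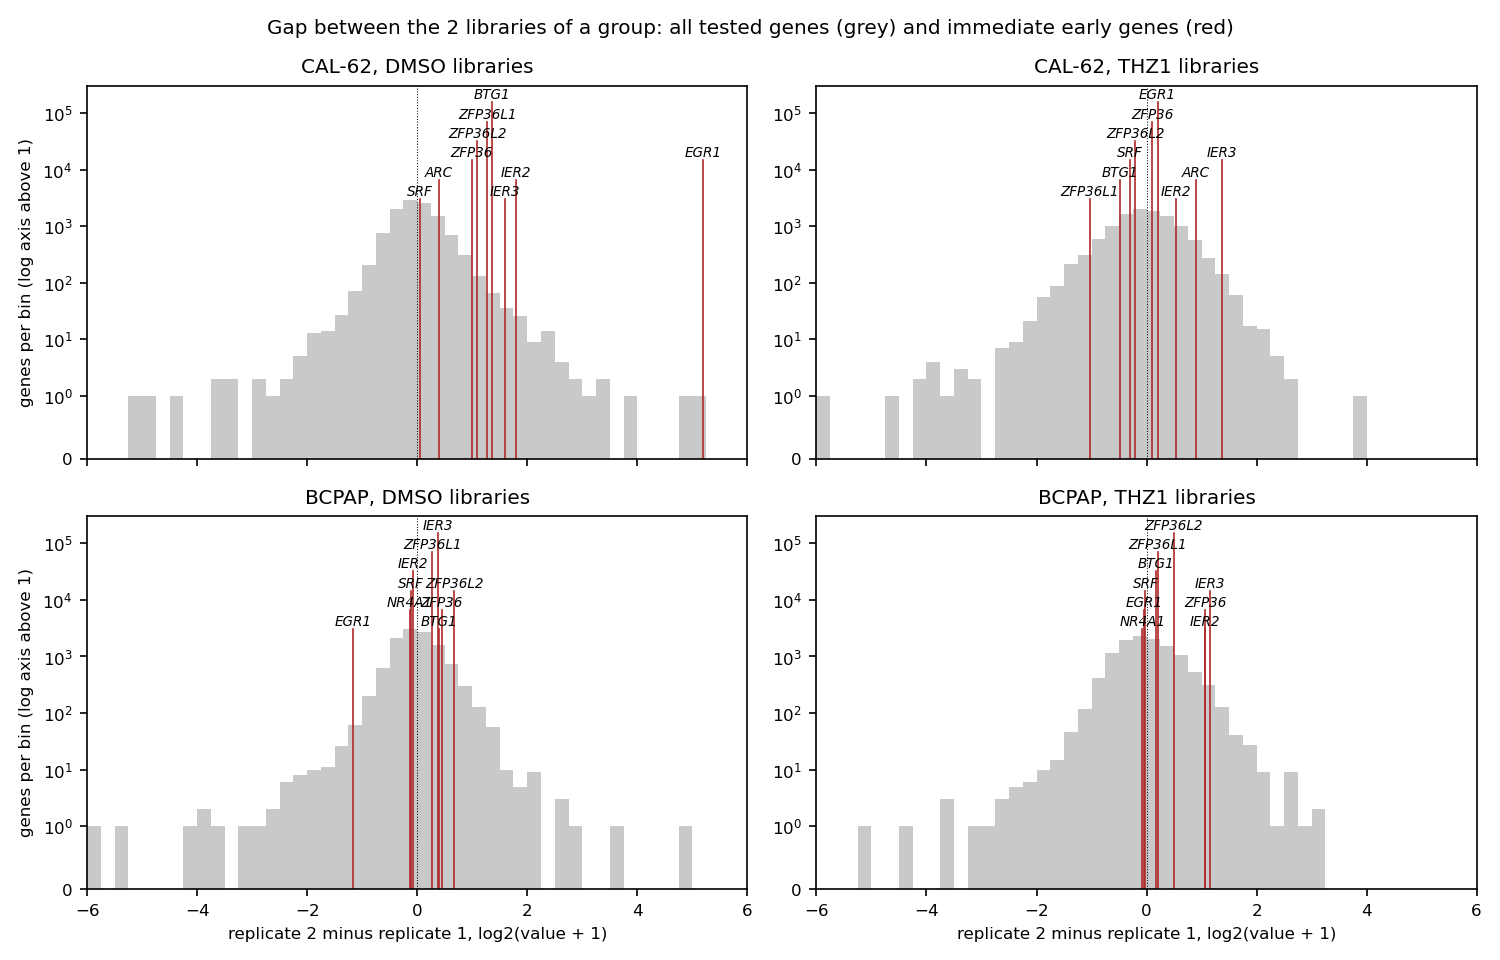
Replicate 2 minus replicate 1 in log2(value + 1) for all tested genes (grey histogram, number of genes on an axis that is logarithmic above 1) and for the early genes (red lines, whose height only separates the names), in each line and treatment. In the CAL-62 DMSO panel all 9 red lines lie right of 0 and EGR1, at 5.19, lies at the far end of the distribution, whereas in the other panels they lie on both sides of 0.

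For the genes with a wide DMSO gap, THZ1 against DMSO in CAL-62 depends on the DMSO library that is compared. Over all 11362 genes, limma called 525 (4.62%), of which 66 were higher (0.581%) and 459 lower (4.04%). Of the 9 early genes 1 was called, ARC, a count that rests on the contrast that chose them. In bulk RNA, fewer cells with a transcript and less transcript per cell cannot be told apart.

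ARC encodes a cytoskeletal protein best known from synaptic plasticity in neurons, where it is a classical immediate early gene. Its values were 0.756 and 1.31 under DMSO and 10.9 and 21.0 under THZ1 (48, 91, 441 and 1158 reads). Both THZ1 libraries were above both DMSO libraries. The mean went from 1.03 ± 0.393 to 15.9 ± 7.20 (SD, n = 2), a change of 3.004 in log2(value + 1), which ranked 3 of 11362. Within replicate number 1 the ratio was 14.4 and within number 2 it was 16.04. That these ratios are alike rests on matching libraries by number, and the labels do not say that same-numbered libraries belong together. Its DMSO mean lay just above the lowest mean that the CAL-62 table lists, so the gene was close to not being listed there, as it is not in BCPAP.

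EGR1 gave no single direction in CAL-62. THZ1 libraries stood at 116 and 134 (125 ± 12.4), close together and between the 2 DMSO values of 9.47 and 382 (196 ± 264). Within replicate number 1 EGR1 was 12.3-fold higher with THZ1. Within number 2 it was at 0.350 of its DMSO value. The mean change in log2(value + 1) was 0.99 and the ratio of the group means was 0.639, which point in opposite directions. Without DMSO replicate 2 the change was 3.59, and without DMSO replicate 1 it was -1.61.

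SRF, the transcription factor that reads the CArG boxes printed above, had 33.5 and 34.7 under DMSO and 38.6 and 31.1 under THZ1. The groups overlapped and the change was 0.02. NR4A1, an orphan nuclear receptor, was not listed in CAL-62.

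IER2 was higher in both numbers: 41.7 and 147 under DMSO, 249 and 363 under THZ1. The groups did not overlap, the change was 1.92 (rank 13 of 11362), and the ratio was 5.97 within number 1 and 2.46 within number 2. IER3 had 1.08 and 5.27 under DMSO and 3.21 and 9.86 under THZ1. Its groups overlapped, with ratios of 2.96 and 1.87 within the numbers and a change of 0.90. For both genes the THZ1 library lay above the DMSO library of the same number, and the DMSO gap of IER3 (4.86-fold) was larger than its ratio within either number.

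Among the decay regulators, ZFP36 (tristetraprolin) had 0.929 and 2.85 under DMSO and 3.90 and 4.26 under THZ1, from 35 to 139 reads. Its groups did not overlap, and the change was 0.90. ZFP36L1 had 87.3 and 213 under DMSO and 181 and 88.2 under THZ1, a change of -0.11 with overlapping groups. ZFP36L2 had 12.9 and 28.5 against 25.2 and 21.7, a change of 0.27. BTG1, an antiproliferative protein, had 6.52 and 18.3 against 9.12 and 6.23, a change of -0.50. These last 3 genes lay higher with THZ1 in number 1 and lower in number 2, with ratios of 2.07 and 0.415 for ZFP36L1, 1.95 and 0.760 for ZFP36L2, and 1.40 and 0.340 for BTG1.

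Counted over the group, 5 of 9 (EGR1, SRF, BTG1, ZFP36L1 and ZFP36L2) were higher with THZ1 in replicate number 1 and lower in number 2, against 11.3% of all genes. The median change of the 9 genes was 1.04 within number 1 and -0.15 within number 2, beside 0.06 and 0.07 over all genes. Non-overlapping and higher with THZ1 were ARC, IER2 and ZFP36 (30.1% of all genes), and none was non-overlapping and lower (27.4%). The deposited scaling holds a typical gene level. With ribosomal protein genes as the reference the median change of all genes became -0.76, and with the sum of values -0.51. Under those references SRF (-0.89 and -0.60) and ZFP36L2 (-0.63 and -0.35) turned negative, while ARC (2.32 and 2.503), IER2 (0.99 and 1.28) and ZFP36 (0.24 and 0.43) stayed above 0.

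**Figure D3:**
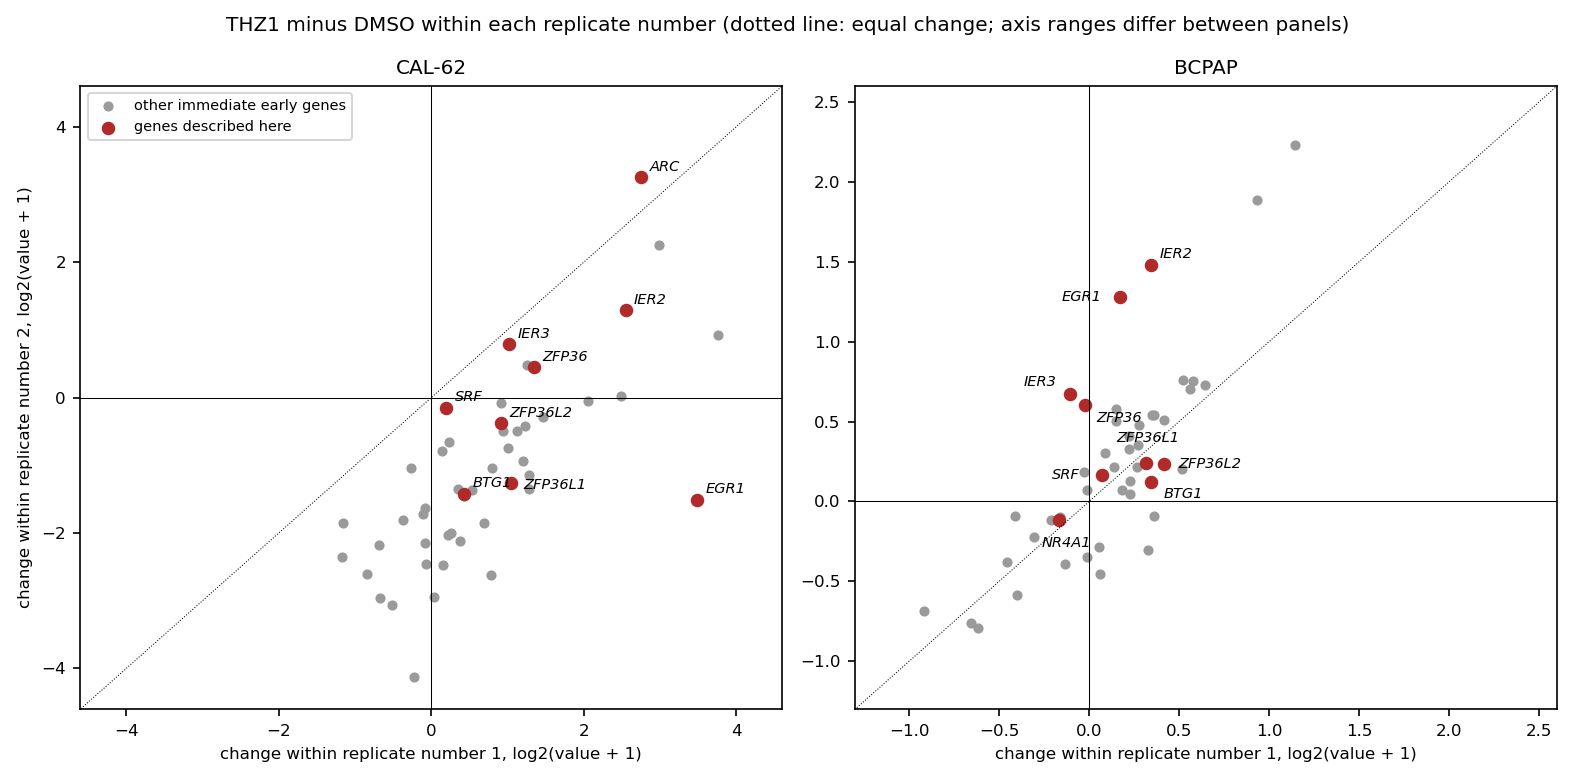
THZ1 minus DMSO in log2(value + 1) within replicate number 1 (horizontal) and within number 2 (vertical), in CAL-62 and BCPAP, for the early genes described here (red, named) and the other immediate early genes of a longer list (grey). In CAL-62 ARC lies near the line of equal change at 2.76 and 3.25, EGR1 lies at 3.49 and -1.51, and most grey points lie below the line; in BCPAP, drawn on a narrower range, EGR1 and IER2 lie above it.

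A longer list of 47 other immediate early genes, of which 40 were tested in CAL-62, shared the pattern between the DMSO libraries. The list was drawn up with earlier results of these data known, so it is no independent support for that pattern. In 28 of the 40, DMSO replicate 2 was at least 2-fold above replicate 1 (4.51% of all genes). The median change was 0.37 within number 1 and -1.41 within number 2, and 23 of 40 were higher in number 1 and lower in number 2 (11.3% of all genes). limma called none of the 40, with 13 at an unadjusted p under 0.05 (30.1% of all genes in this contrast), and limma-voom called 1, FOSL1, which was lower and is named because of that single call. With all libraries the median change of the list was -0.55, without DMSO replicate 2 it was 0.01, and without DMSO replicate 1 it was -1.06, with KLF4 called lower. Non-overlapping and higher with THZ1 were 4 of the 40 (30.1% of all genes), and 13 were non-overlapping and lower (27.4%). The largest non-overlapping changes, both upward, were those of FOS and JUNB, subunits of the AP-1 transcription factor. The largest downward one was that of DUSP1 (-2.17). FOS had 2.90 and 14.9 under DMSO and 29.8 and 74.6 under THZ1, a change of 2.61 ± 0.74 (SE; limma adjusted p = 0.0865). JUNB had 12.6 and 78.3 against 183 and 150, a change of 2.34 ± 0.71 (limma adjusted p = 0.0805). Both missed the threshold. With ribosomal protein genes as the reference 14 of the 40 were called, all lower, with a median change of -1.32 (3096 of 11452 genes were called lower). With the sum of values 12 were called, all lower, with a median of -1.05 (2415 of 11398 genes).

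SRF works with cofactors of the ternary complex and myocardin families, and EGR1 is held back by the corepressors NAB1 and NAB2. Of 8 such genes tested in CAL-62, 1 was called and it fell: MKL2, a myocardin-related cofactor of SRF, had 5.30 and 5.41 under DMSO and 2.05 and 1.92 under THZ1 (change -1.09 ± 0.23 SE, limma adjusted p = 0.0446). The median change of the list was -0.56. That call was kept in 2 of 8 fits that left out a library, those without either BCPAP THZ1 library, and was lost in each fit without a CAL-62 or a BCPAP DMSO library. It was also lost with a pseudocount of 0.1 and with only the 4 libraries compared, and MKL2 was not tested at a mean value of at least 5. The actin and contractile targets of SRF lay on the other side of 0, with a median of 0.64 over 12 genes. Non-overlapping and higher were 9 of the 12 (30.1% of all genes), among them TAGLN2 (238 and 175 against 433 and 332) and TAGLN (114 and 159 against 208 and 300). None of the 12 was called by limma or limma-voom (4 and 5 at an unadjusted p under 0.05, against 30.1% and 29.7% of all genes), and the median was -0.30 with ribosomal protein genes as the reference, above the -0.76 of all genes.

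Of 21 deadenylation and decay partners of BTG1 and the ZFP36 family none was called in CAL-62 by limma or by limma-voom, with 9 at an unadjusted p under 0.05 in each (30.1% and 29.7% of all genes). The median change was -0.10. TOB1, a relative of BTG1, had 12.6 and 11.4 under DMSO and 44.9 and 22.7 under THZ1, a change of 1.34 ± 0.31 (SE; limma adjusted p = 0.0510). CNOT6, a deadenylase subunit, had 11.9 and 8.33 against 5.77 and 3.56, a change of -0.98. Among 11 cytokine and growth factor transcripts known as ZFP36 family targets, 8 were at least 2-fold higher in CAL-62 DMSO replicate 2 than in replicate 1 (4.51% of all genes). This list too was chosen with earlier results of these data known. The median change of these targets was 0.44 within number 1 and -1.82 within number 2. None of the targets was called by either fit, with 1 at an unadjusted p under 0.05 in each, again against 30.1% and 29.7% of all genes. IL6 had 1.29 and 7.96 under DMSO and 0.489 and 1.08 under THZ1, and BIRC3 had 9.31 and 8.86 against 6.05 and 1.28. Of 11 subunits of TFIIH and elongation kinases none was called by either fit (3 at an unadjusted p under 0.05 in each, beside the same shares), with a median of -0.09. GTF2H1 had 21.1 and 20.3 against 9.58 and 12.1, and CDK9 had 30.6 and 33.0 against 15.7 and 22.7.

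In BCPAP, limma called none of 11743 genes (0%), with 471 at an unadjusted p under 0.05, and limma-voom called none. IER2 had 47.2 and 44.8 under DMSO and 60.2 and 127 under THZ1, a change of 0.91 that ranked 39 of 11743. EGR1 had 11.0 and 4.37 against 12.5 and 12.0, a change of 0.72. For both the groups did not overlap, and for both the ratio was larger in number 2 (2.83 and 2.75) than in number 1 (1.28 and 1.14). SRF had 24.7 and 22.8 against 26.0 and 25.7, also without overlap, with a change of 0.12 that turned to -0.10 with ribosomal protein genes and -0.11 with the sum of values as the reference. NR4A1 had 4.38 and 3.91 against 3.78 and 3.53, the member that was non-overlapping and lower, with a change of -0.14.

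Among the decay regulators in BCPAP, ZFP36L1 had 116 and 140 under DMSO and 144 and 166 under THZ1, without overlap. BTG1 (16.1 and 21.5 against 20.8 and 23.5) and ZFP36L2 (10.3 and 17.1 against 14.1 and 20.3) overlapped between the groups. ZFP36 (1.33 and 2.17 against 1.30 and 3.82) and IER3 (1.40 and 2.12 against 1.23 and 3.97) were lower in number 1 and higher in number 2, the 2 of 9 whose sign differed between the numbers (26.6% of all genes). In all, 4 of 9 were non-overlapping and higher (21.9% of all genes), 1 was non-overlapping and lower (16.4%), and 8 of 9 had a positive change (58.6%). The median change of the 9 was 0.28, beside 0.07 over all genes. In CAL-62, 7 of 9 had a positive change (51.8% of all genes). Whether the response of these genes differs between the lines was not tested, since both responses were used to choose them.

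The longer lists had medians close to that of all genes in BCPAP. Of 39 other immediate early genes 26 had a positive change (58.6% of all genes), with a median of 0.18. JUNB (23.7 and 19.6 against 53.5 and 95.6) and IER5L (4.06 and 4.66 against 8.65 and 19.9) had the largest non-overlapping changes, 1.69 and 1.41. TOB1 had 7.65 and 7.38 under DMSO and 16.9 and 17.7 under THZ1, and the decapping enzyme gene DCP2 had 4.19 and 4.19 against 7.24 and 7.24. The medians were 0.00 for the SRF cofactors and EGR1 corepressors, 0.13 for the actin targets, 0.05 for the decay partners, -0.06 for the ZFP36 family targets and 0.07 for the TFIIH and elongation kinase genes. Among the non-overlapping members of these lists were MYOCD (change -0.69), NAB2 (-0.31), TAGLN2 (0.33), VCL (0.13), CXCL3 (0.65), IL1A (-0.52), CCNH (0.51) and CCNT1 (0.61).

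The difference between the lines under DMSO is not the contrast by which the genes were chosen. The DMSO libraries were nevertheless among those with which they were chosen, so the tests that follow are not independent of that choice. Values were rescaled jointly over the genes of both tables, and limma called 1602 of 10649 genes (15%), 738 higher in CAL-62 (6.93%) and 864 lower (8.11%). None of the 8 shared early genes was called, with 1 at an unadjusted p under 0.05, and limma-voom called none of them. SRF came closest. Its rescaled values were 24.3 and 22.9 in BCPAP and 33.0 and 35.0 in CAL-62, the single early gene without overlap (33.8% of all genes were non-overlapping and higher). The difference was 0.51 ± 0.18 in log2(value + 1) (SE; limma adjusted p = 0.0975).

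EGR1 had the largest difference of the 8, 2.99 ± 1.36 (SE; limma adjusted p = 0.172), with rescaled values of 10.8 and 4.38 in BCPAP and 9.33 and 386 in CAL-62. Its low CAL-62 library lay within the BCPAP range and its high one far above. Without CAL-62 DMSO replicate 1 the difference was 5.60 (limma adjusted p = 0.00469), a fit in which a single library stands for CAL-62 DMSO and is assumed to vary like the others. Without CAL-62 DMSO replicate 2 it was 0.38 (limma adjusted p = 0.674). The other differences were 0.77 for IER2, 0.51 for ZFP36L2, 0.41 for IER3, 0.10 for ZFP36L1, 0.01 for ZFP36 and -0.69 for BTG1, with limma adjusted p from 0.301 to 0.992. In each of these 6 the BCPAP and CAL-62 libraries overlapped. These wide errors do not show that the lines have equal levels. For EGR1 and these 6 genes the CAL-62 DMSO libraries differed from each other by more than the lines did.

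**Figure D4:**
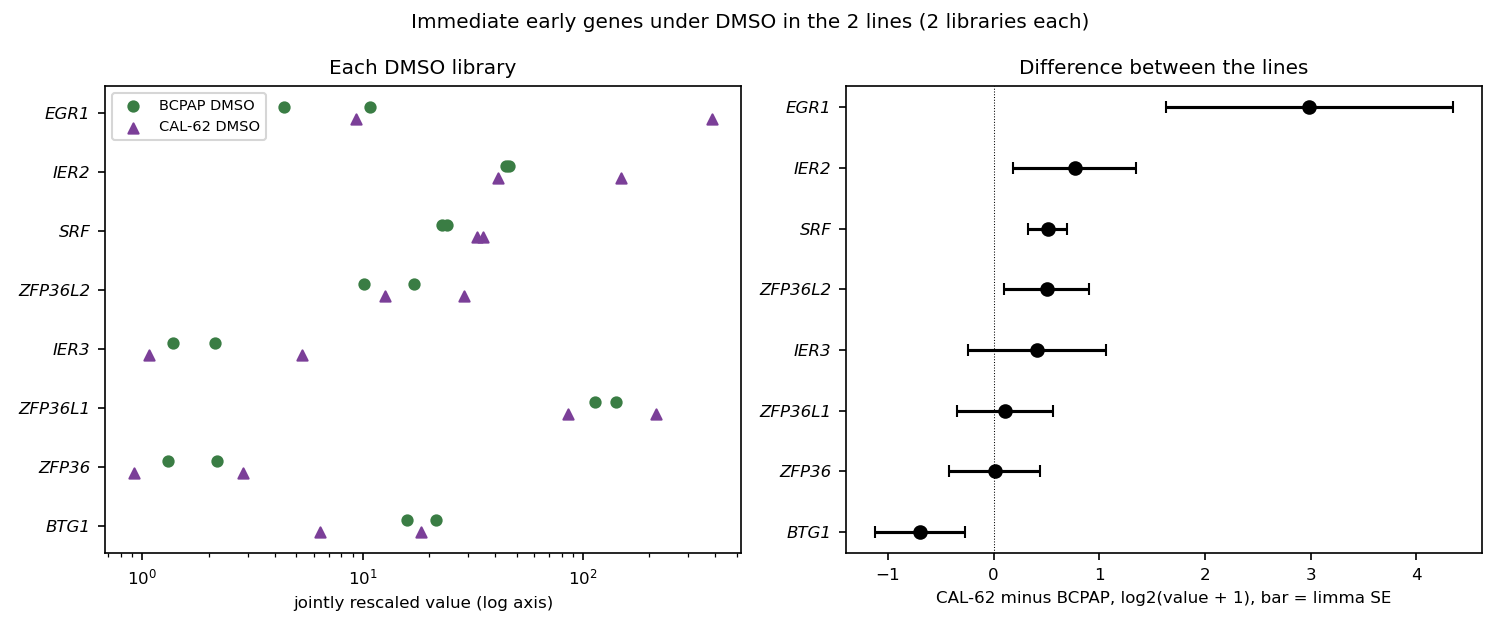
Left, jointly rescaled value (log axis) of the 8 shared early genes in each DMSO library of BCPAP (circles) and CAL-62 (triangles). Right, CAL-62 minus BCPAP in log2(value + 1) with the limma standard error. The SRF libraries of the lines are apart (24.3 and 22.9 against 33.0 and 35.0), and EGR1 has the widest error, 1.36.

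Over the 6 longer lists, 16 of 100 genes (16%) were called between the lines under DMSO, close to the 15% called over all genes, so the count is no result about the lists. FOSL2, an AP-1 subunit, was lower in CAL-62 (rescaled 69.4 and 89.5 in BCPAP, 10.1 and 19.0 in CAL-62; difference -2.42 ± 0.42 SE, limma adjusted p = 0.0108). DUSP4, a phosphatase of MAP kinases induced by their activity, was lower as well (16.9 and 10.8 against 2.22 and 1.85; limma adjusted p = 0.0114). They were the 2 called of 38 other immediate early genes. MKL2 was the 1 called of 8 SRF cofactors and EGR1 corepressors, higher in CAL-62 (2.44 and 2.41 against 5.22 and 5.47; limma adjusted p = 0.0364), though not with a pseudocount of 0.1 or with ribosomal protein genes as the reference. Of 11 actin and contractile genes TAGLN, MYL9 and TLN1 were higher and TAGLN2 and TPM1 lower, with differences of 2.90, 2.03, 0.79, -1.003 and -1.92. Of 21 decay partners TOB2 (1.64) and CNOT1 (0.88) were higher and CNOT8 (-0.98) and CNOT10 (-0.94) lower. Of 11 ZFP36 family targets PLAU (1.85) and BIRC3 (1.82) were higher. Of 11 TFIIH and elongation kinase genes ERCC2 (-1.86) and CDK7 (-0.73), the target of THZ1, were lower. limma-voom called all 16 of these genes. When each library was left out in turn, 2 of the 16 (TPM1 and PLAU) were called in every fit, and each of the others was lost without at least 1 of the DMSO libraries.

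The genes whose pattern lay closest to that of ARC and EGR1 were found by the root mean square difference in log2(value + 1), centred within each line. For ARC, over 4 CAL-62 libraries and 7751 genes, the 5 closest were RN28S1 (0.21), RN18S1 (0.55), FOS (0.63), LOC100287195 (0.70) and SAT1 (0.74). RN28S1 and RN18S1 are ribosomal RNA genes, whose product is largely removed by poly(A) selection. RN28S1 had 3.14 and 3.48 under DMSO and 27.2 and 63.4 under THZ1, and RN18S1 had 1.46 and 1.04 against 29.4 and 28.0. Like ARC, both were higher in the THZ1 than in the DMSO libraries, which the search for likeness favours. Within each group RN28S1 was higher in replicate 2 than in replicate 1, as ARC was, whereas RN18S1 was lower. Whether residual ribosomal RNA has a part in the value of ARC was not tested. FOS is an early gene too.

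For EGR1, over 8 libraries and 7915 genes, the 5 closest were CSF2 (0.76), PMAIP1 (0.79), CXCL2 (0.83), TNFAIP3 (0.94) and IL8 (0.95). CSF2, CXCL2 and IL8 encode a growth factor and chemokines with AU-rich transcripts, TNFAIP3 is a feedback inhibitor of NF-κB, and PMAIP1 encodes a BH3-only protein. All 5 shared the CAL-62 DMSO gap. The search for likeness to EGR1, whose own gap was wide, favours such genes and their THZ1 values, so both are description. CSF2 had 1.07 in replicate 1 and 20.0 in replicate 2, and PMAIP1 had 16.7 and 94.0. TNFAIP3 had 2.21 and 16.5, CXCL2 had 3.35 and 24.1, and IL8 had 3.23 and 35.5. Under THZ1 all 5 lay below the high DMSO value in both CAL-62 libraries, as EGR1 did. CSF2 had 3.06 and 4.93, PMAIP1 33.6 and 57.1, CXCL2 7.94 and 13.9, TNFAIP3 4.36 and 3.60, and IL8 5.52 and 5.46.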

How the data were processed

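Each of 8 libraries had 1 deposited table without a header. The authors' deposited values are RPKM-type numbers, a unit inferred from the values. Bowtie2, DESeq2 and hg19 are named in the submitters' processing notes, without versions or roles. Neither the annotation nor the strand setting is given in the sources used here. Whole reads were recovered from the values for 12715 of 12715 genes, to within 0.02 reads. Depth and reads per gene come from these, and counting error is small beside the spread between replicates.

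limma 3.58.1 (R 4.3.3) was fitted with a trend on log2(value + 1) to genes whose mean value reached 1, with 1 mean per group and all 8 libraries sharing the spread. Genes of 1 line only were fitted on its 4 libraries. Tests were two-sided, adjusted by Benjamini-Hochberg over all genes tested. An adjusted p under 0.05 counts as a call. The log2(value + 1) scale understates the change of low genes. For levels between lines, values were divided by median-of-ratios factors over genes in both tables. Replicate libraries differed far beyond counting noise.

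The members and lists were chosen with earlier results of these data known. All 10 members are named. Per list and comparison the text names called genes, or with none the 2 largest changes without overlap between the groups. Genes like ARC and EGR1 needed a mean value of at least 5. Motifs were searched in RefSeq promoters (GRCh38.p14) and GENCODE v29 3′ untranslated regions. Pseudocount 0.1, no filter, a mean of at least 5, ribosomal protein and sum scaling, a replicate block, limma-voom on recovered reads, only the 4 libraries compared, median-of-ratios within the line, values as deposited and leaving out each library were tried.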

Additional observations from a re-analysis of the deposited data

How the results depend on the processing

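The count of genes called for THZ1 in CAL-62, 525, was 196 with a mean value of at least 5, 3100 (4 higher, 3096 lower) with ribosomal protein genes and 2422 (7 higher, 2415 lower) with the sum of values as reference, and 0 with only the 4 libraries compared (2960 at an unadjusted p under 0.05). Leaving out 1 library gave 0 (CAL-62 DMSO replicate 2) to 811 (BCPAP THZ1 replicate 1), with 9 without CAL-62 DMSO replicate 1, 260 without CAL-62 THZ1 replicate 1, 186 and 181 without BCPAP DMSO replicate 1 and 2, and 806 without BCPAP THZ1 replicate 2. The BCPAP count was 0 in every alternative but 1, without BCPAP DMSO replicate 1 (1 gene), so that leaving out a library gave 0 to 1. The count between lines under DMSO, 1602, was 275 (without BCPAP DMSO replicate 2) to 2029 when a library was left out, with 327 without BCPAP DMSO replicate 1, and 450 and 315 without CAL-62 DMSO replicate 1 and 2. Ribosomal protein genes as reference changed its split from 738 higher and 864 lower to 928 and 285. In CAL-62 that reference also gave calls for THZ1 in other lists, all lower. They were 5 of 8 SRF cofactors and EGR1 corepressors and 6 of 21 decay partners. Of the ZFP36 family targets 3 of 11 were called, and of the TFIIH and elongation kinase genes 3 of 11. The causes were not tested.

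The labels do not say what a replicate number marks, and with 2 pairs per line the deviations of same-numbered libraries correlated at 0.47 in CAL-62 and 0.78 in BCPAP. With the replicate block the counts of called genes were 4563 in CAL-62, 0 in BCPAP and 4255 between lines (40% of 10649 genes). Of the 8 shared members 1 was then called between lines, SRF (limma adjusted p = 0.0284), so that count is no result about the members. In CAL-62, where the block called 40.2% of all genes, the lists without a call then had some: 10 of 40 other immediate early genes (3 higher, 7 lower), 8 of 12 actin and contractile genes (all higher), 7 of 21 decay partners (3 higher, 4 lower), 3 of 11 ZFP36 family targets (lower) and 5 of 11 TFIIH and elongation kinase genes (2 higher, 3 lower). The SRF cofactors and EGR1 corepressors had 5 of 8 (lower), and the members had 4 of 9 (ARC, IER2, IER3 and ZFP36). The members were chosen by this contrast and their count lies near the share of all genes, so nothing is read from it.

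ARC, chosen by this contrast, had a change of 2.32 to 3.93 over 17 alternatives. Leaving out either CAL-62 DMSO library, or fitting only the 4 libraries compared, removed its call, from which nothing is read. EGR1 in CAL-62 ranged from -1.61 to 3.59. BTG1 in CAL-62 was 0.18 without DMSO replicate 2, and -1.33 and past the threshold with ribosomal protein genes as reference. Between lines EGR1 was called in 1 of 17 alternatives, the one given with its value, and BTG1, IER2, IER3 and ZFP36L2 changed sign in 1 each, ZFP36L1 in 2 and ZFP36 in 4. With 2 libraries a group, low levels such as ZFP36 in CAL-62 DMSO replicate 1 (35 reads) also carry counting error.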
